A study of Mus musculus with 8 samples.

Results

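The subject is the response of parental L929 cells, a mouse fibroblast line, to interferon beta (IFNβ), read from Illumina mouse bead arrays. The members are the 2 arrays of L929 cells given IFNβ at 1000 U/ml for 4 h and the 2 arrays of untreated L929 cells, which is 4 of the 8 arrays of the series, taken by their titles. All 25697 probes were tested and were named by the platform's gene symbol, which gave 16593 genes. The description keeps to the 7936 genes (11817 probes) whose mean intensity lay above 23.7 in at least 1 of the 2 groups. That value is the size of the lowest deposited intensity and serves as the bound of background. A list of 73 best known antiviral genes on the array was set apart, so that the account is of the other genes.

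Per the labels, all cells grew in DMEM with 10% foetal calf serum, the parental cells carry no ectopic IRF8, and the replicates are independent. The other 4 arrays hold L929 cells with ectopic IRF8 (L929IRF8), untreated and given the same IFNβ. They entered the same model and appear here only where their values stand beside those of the parental line. Whether the lines are clones, and whether a vector control was used, is not given in the labels. The p-values measure the spread between replicate cultures, pooled over both lines.

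Type I interferons such as IFNβ bind a receptor that is present on nearly all nucleated cells. The receptor's kinases activate a transcription factor complex that binds the interferon-stimulated response element, a DNA site with a repeated GAAA core, in the promoters of target genes. Interferon signalling also acts through a different site, the gamma-activated sequence. Fibroblasts respond with antiviral effector proteins, but target genes also encode enzymes, nuclear proteins, cell surface ligands and components of signalling.

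The fibroblast label was set against marker genes. Of 15 fibroblast markers on the array 10 lay above the bound in both groups, among them Col1a1, Col1a2, Pdgfra, Pdgfrb and Vim, and their summed intensity was 32926.6 to 36374.8 untreated and 32079.4 to 33499.3 after IFNβ. Thy1, a surface marker of many fibroblasts, was at or below 0 on every L929 array. Myeloid markers were above the bound for 2 of 11 genes (Lyz2 and Cd14) and lymphoid markers for 1 of 13 (Cd3g), in both groups. Their summed intensities did not overlap between the groups, with 63.8 to 101.1 untreated and 107.5 to 161.9 after IFNβ for the myeloid list and 65.2 to 88.9 and 98.2 to 164.1 for the lymphoid list. The brightest members, Cd14 (105.5 and 77.6 untreated, 129 and 71.7 after IFNβ) and Cd3g (95.1 and 60.1, then 133.4 and 84.7), overlapped and did not pass. Apart from Lyz2 the other members lay under the bound. With 2 arrays against 2, any sum that does not overlap has a two-sided p of 0.333 by an exact permutation test. Epithelial markers went from 1 to 3 of 9 above the bound, and their sum from 61.4 to 96.6 untreated to 105.8 to 170 after IFNβ. Endothelial markers went from 0 to 2 of 9, with sums of 27.7 to 55.2 and 74.8 to 76.3. Esrp1, an epithelial splicing regulator, passed the test (-6.8 and -0.6 untreated, 79.7 and 56.3 after IFNβ), and without it the epithelial sums overlapped between the groups (68.2 and 97.2 untreated, 90.3 and 49.5 after IFNβ). The test was also passed upward by the myeloid gene Adgre1 at levels under the bound. In bulk RNA fewer cells of a type and less RNA per cell cannot be told apart, and the part of other cell types in the results was not tested.

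In the model over all 8 arrays more probes passed upward than downward after IFNβ, a balance that turned without either untreated L929 array. By limma, at an adjusted p under 0.05 over all probes, 256 probes were higher (0.996% of those tested) and 72 were lower (0.28%). By gene, with the brightest probe standing for each gene, 181 were higher (1.09%) and 53 lower (0.319%). Of these, 166 risen and 37 fallen genes lay above the bound in at least 1 group. The 53 best known antiviral genes among the risen left 113 others. The 15 risen and 16 fallen genes under the bound are given no fold.

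Sizes differed between the directions. Folds here compare geometric means after intensities below the bound were lifted to it, so a fold against a group under the bound is a lower limit. Of the 113 other risen genes, 18 rose at least 16-fold, 41 between 4 and 16-fold, 41 between 2 and 4-fold and 13 less than 2-fold, with a median of 4.24-fold. The best known genes had a median of 15.1-fold. Among the 37 fallen genes 1 fell more than 4-fold, the other 36 fell less than 2-fold, and the median was 1.55-fold. The starting level also varied, since 31 of the 113 genes had both untreated arrays under the bound, 3 had 1 array under it, and 79 were measured above it before IFNβ.

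These counts depended on the arrays in the fit. With the 4 L929 arrays alone, which leave 2 residual degrees of freedom against 4, 9 probes were higher and 0 lower by limma, with 1158 higher and 1587 lower at an unadjusted p under 0.05. Without L929 untreated replicate 1, 141 probes were higher and 213 lower, and without untreated replicate 2, 171 were higher and 298 lower. Without L929 IFNβ replicate 1, 396 were higher. Lower probes numbered 44 without either untreated L929IRF8 array and 40 without either L929IRF8 IFNβ array. Lost in most of the alternative settings were the calls of 3 of the 30 largest rises (Irf5, Sp140 and Uba7) and of 11 of the 20 largest falls (Bcl7a, Chst1, Cop1, Eml1, Foxc2, Lpar2, Spast, Ssx2ip, Tmed8, Trim33 and Zswim3). The same held for 15 of the 41 other genes named by list, which were Apobec3, Casp1, Ccl12, Ddx24, Esrp1, H2-T24, Il15ra, Max, Parp12, Psme1, Rnf114, Rnf34, Serpinb6b, Slc25a28 and Usp25.

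**Figure D1:**
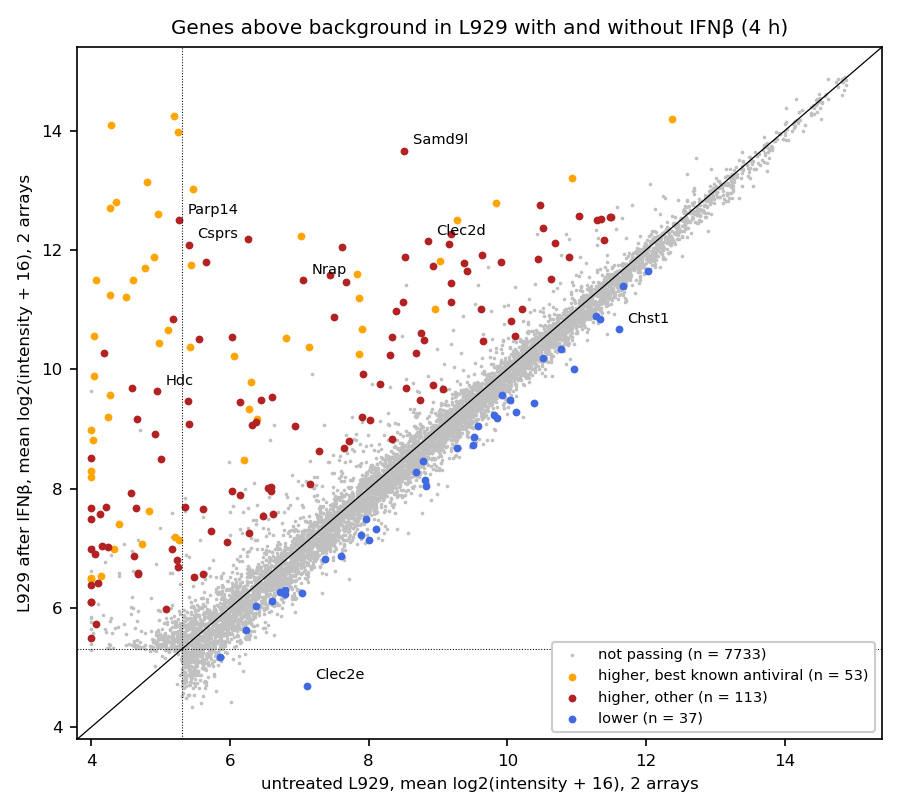
Mean log2(intensity + 16) of the 7936 genes above the bound in untreated L929 (horizontal axis) and in L929 after IFNβ (vertical axis), 2 arrays each, with the line of equal level and dotted lines at the bound. The 113 other risen genes start at all levels, while the 37 fallen genes except Clec2e lie close to the line.

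The promoters of the most strongly risen genes are shown because the interferon-stimulated response element is a site through which the pathway acts. Sequences are from RefSeq on GRCm38.p6, 250 bases before to 50 after the annotated gene start, 5′ to 3′ on the gene's strand. The letters searched were GAAANNGAAA on both strands, and capitals mark each match. Of the 30 largest rises outside the best known list 23 had a promoter in the table and 7 held a match. The 6 with the largest changes are printed, with Phf11d as the gene without a match. Their places are chr14:59297473-59297772 on the minus strand for Phf11a, chr15:77728822-77729121 on the plus strand for Apol9b, chr7:104507800-104508099 on the minus strand for Trim30d, chr1:173535908-173536207 on the minus strand for Ifi214, chr7:45529349-45529648 on the plus strand for Plekha4, chr13:120300142-120300441 on the plus strand for BC147527 and chr14:59365441-59365740 on the minus strand for Phf11d.
Phf11a: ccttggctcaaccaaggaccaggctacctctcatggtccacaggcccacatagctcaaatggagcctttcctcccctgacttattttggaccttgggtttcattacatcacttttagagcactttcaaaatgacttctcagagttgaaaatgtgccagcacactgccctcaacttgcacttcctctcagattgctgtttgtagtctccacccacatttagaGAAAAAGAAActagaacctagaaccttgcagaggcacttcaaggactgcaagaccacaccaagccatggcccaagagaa
Apol9b: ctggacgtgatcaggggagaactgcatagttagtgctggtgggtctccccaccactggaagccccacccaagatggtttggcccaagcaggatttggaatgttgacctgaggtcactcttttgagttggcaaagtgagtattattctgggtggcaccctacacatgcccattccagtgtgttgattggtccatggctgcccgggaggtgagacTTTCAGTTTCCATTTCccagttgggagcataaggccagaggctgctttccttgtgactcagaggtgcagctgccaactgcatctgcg
Trim30d: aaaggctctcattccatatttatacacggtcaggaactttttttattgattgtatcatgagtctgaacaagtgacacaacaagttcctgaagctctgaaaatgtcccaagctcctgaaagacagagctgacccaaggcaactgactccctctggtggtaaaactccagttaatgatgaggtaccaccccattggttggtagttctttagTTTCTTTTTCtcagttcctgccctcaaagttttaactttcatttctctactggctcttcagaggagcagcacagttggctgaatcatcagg
Ifi214: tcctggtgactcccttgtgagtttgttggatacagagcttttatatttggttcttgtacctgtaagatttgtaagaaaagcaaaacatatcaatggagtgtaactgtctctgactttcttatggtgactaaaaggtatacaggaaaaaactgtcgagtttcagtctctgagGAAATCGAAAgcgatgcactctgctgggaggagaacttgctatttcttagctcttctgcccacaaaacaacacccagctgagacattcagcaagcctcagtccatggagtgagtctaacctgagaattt
Plekha4: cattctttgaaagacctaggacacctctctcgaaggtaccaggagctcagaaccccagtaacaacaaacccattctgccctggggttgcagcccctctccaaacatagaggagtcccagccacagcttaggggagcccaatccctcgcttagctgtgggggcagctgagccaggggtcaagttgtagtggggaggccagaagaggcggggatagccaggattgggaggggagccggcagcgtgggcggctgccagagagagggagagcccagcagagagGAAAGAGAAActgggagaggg
BC147527: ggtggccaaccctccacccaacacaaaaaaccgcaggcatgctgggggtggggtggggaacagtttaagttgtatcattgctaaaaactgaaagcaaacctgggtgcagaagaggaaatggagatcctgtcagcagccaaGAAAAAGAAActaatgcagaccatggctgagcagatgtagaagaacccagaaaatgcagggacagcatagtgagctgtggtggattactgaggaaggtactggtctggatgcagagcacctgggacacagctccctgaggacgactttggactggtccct
Phf11d: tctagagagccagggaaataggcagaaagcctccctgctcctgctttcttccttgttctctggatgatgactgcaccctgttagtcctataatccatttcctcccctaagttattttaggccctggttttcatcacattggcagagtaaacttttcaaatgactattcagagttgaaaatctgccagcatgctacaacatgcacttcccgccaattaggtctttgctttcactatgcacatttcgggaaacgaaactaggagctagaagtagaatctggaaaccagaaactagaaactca
Counted from the annotated start base as 0, the match begins at -29 in Phf11a, -37 in Apol9b, -41 in Trim30d, -79 in Ifi214, 29 in Plekha4 and -110 in BC147527. Apol9b holds 2 overlapping matches in 1 run. For Phf11d the search says only that these letters are not in the window.

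Over the whole table the motif was in the promoters of 3.99% of 27025 genes, and in 3.47% of the 6348 genes above the bound that were not called. It was in 42 of the 132 risen genes with a promoter in the table (31.8%). The best known genes held it in 22 of 40 cases (55.0%) and the others in 20 of 92 (21.7%). Among the others the share was 26.7% (12 of 45) for rises of 4-fold or more, 19.4% (7 of 36) for 2 to 4-fold and 9.09% (1 of 11, a thin bin) for smaller rises. It was 34.8% (8 of 23) for genes with both untreated arrays under the bound and 17.9% (12 of 67) for those measured above it. None of the 28 fallen genes with a promoter held it. The letters TTCNNNGAA, the core of the gamma-activated sequence, were in 9.55% of all promoters, 40% of best known risen genes (16 of 40), 8.70% of the other risen genes (8 of 92) and 7.14% of fallen genes (2 of 28). A match to 1 motif overlapped a match to the other in 0.0851% of all promoters, 2.27% of risen genes (3 of 132) and 5% of the best known risen genes (2 of 40). A match is a description of letters, and binding was not measured.

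The named genes are described by role, with the lists of related genes they belong to. The lists were chosen with earlier results of these data known. Some count risen genes that fall outside their title, such as Tor3a and Tor1aip1 among surface genes and Lgals3bp among ubiquitin enzymes. The list counts are thus partly set by the choice, and no enrichment is read from them. Each list count is over its genes on the array and stands beside 1.09% of all genes higher and 0.319% lower. Over the 7936 genes above the bound the shares were 2.09% higher and 0.466% lower. Lists made mostly of such genes are to be read beside these larger shares. Where no fall is named, 0 members of a list passed downward by limma, and 0 to 8 members were lower at an unadjusted p under 0.05. Over all 25697 probes 2538 had such a p (limma) in either direction. The largest rise outside the best known genes was that of Parp14, which encodes an ADP-ribosyltransferase (probe ILMN_2825803). It read 22.3 and 22.6 on the untreated arrays and 5863 and 5709 after IFNβ, at least 244-fold, with a log2 change of 7.24 ± 0.23 (SE, adjusted p = 0.00116, limma). In the family of ADP-ribosyltransferases and Dtx3l, the ubiquitin ligase that pairs with Parp9, 3 of 13 genes on the array rose. The list's median log2 change was 0.29, against -0.0075 over all genes. Parp12 rose from 12.8 and 6.5 to 85.7 and 72.3 (at least 3.32-fold), and Parp9 from under the bound to 32.9 and 41.9 (at least 1.57-fold).

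Several components of nuclear bodies rose. PML bodies are nuclear structures built on the Pml protein, which hold Sp100 and the histone H3.3 chaperone Daxx. Of 18 nuclear body and chromatin reader genes 6 rose, and the median log2 change was 0.036. Daxx went from 173 and 204 to 2859 and 2732, a 14.9-fold rise (log2 change 3.78 ± 0.14, adjusted p = 0.00169, limma). Pml itself was already well measured, at 1529 and 1362, and rose 3.63-fold to 5689 and 4834. Sp100 rose at least 8.06-fold (-4.9 and 5.6 to 217 and 168). Its relatives Sp140 and Sp110, which read chromatin through bromodomains, rose at least 9.58-fold and at least 2.20-fold, and the call of Sp140 was lost in 10 of 17 alternative settings, with adjusted p up to 0.215 (limma). The untreated arrays of the Sp genes were all under the bound, so their folds are lower limits. The sixth member is Uba7, listed here beside its role in ISG15 conjugation. Csprs, named as a component of the repeated Sp100-rs locus, had the second largest rise, from 32.4 and 21.5 to 5243 and 3593 (log2 change 6.68 ± 0.34, adjusted p = 0.00389, limma).

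The enzymes that attach the ubiquitin-like protein ISG15 to other proteins rose as well. Uba7, its activating enzyme, read 241 and 134 untreated and 4174 and 4289.6 after IFNβ, a 23.6-fold rise (adjusted p = 0.0268, limma). The groups were far apart, but the 2 untreated arrays differed, and the call was lost in 10 of 17 alternative settings, with adjusted p from 1.62e-06 to 0.150. Ube2l6, the conjugating enzyme, rose 9.87-fold, from 85.9 and 58.5 to 764 and 641. Of 31 ubiquitin ligases and deubiquitinases outside the TRIM family 6 rose, with a median of -0.0085. Beside these 2 genes they were Lgals3bp (4.92-fold, a secreted galectin ligand and no ubiquitin enzyme), the deubiquitinase Usp25 (2.65-fold) and the ligases Rnf114 (2.25-fold) and Rnf34 (1.69-fold), calls lost in 13, 11 and 9 of 17 alternative settings. For Rnf34 a further probe above the bound had a log2 change of -0.21 and did not pass.

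TRIM proteins are ubiquitin ligases with a RING finger, and several restrict viruses. Of 27 on the array outside the best known list 3 rose and 1 fell, with a median of 0. Trim30d went from 8.0 and 8.3 to 1053 and 615 (at least 34.0-fold), and its neighbour Trim30a from below 0 to 50.2 and 54.4 (at least 2.20-fold). The third riser was Pml. Trim33, a cofactor of SMAD signalling, fell 1.63-fold, from 419 and 447 to 284 and 248.

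Genes that act on RNA and translation included some of the brightest rises. Samd9l, which restricts poxviruses and cell growth, went from 368 and 332 to 13366 and 12583, a 37.1-fold rise (log2 change 5.15 ± 0.19, adjusted p = 0.00169, limma). Among the 30 named rises it was the highest signal after IFNβ. In the list of translation block, RNA decay and RNA helicase genes 7 of 50 rose, with a median of 0. Helz2, a helicase and nuclear receptor coactivator, rose 19.2-fold from 152 and 165 to 3059 and 3018. Slfn2, a schlafen gene tied to the quiescence of T cells, rose 19.9-fold from 26.6 and 26.1 to 532 and 517. The list also held Phf11d and Phf11a, which encode PHD finger proteins, a fold best known from chromatin readers. Phf11d rose 104-fold, from 40.6 and 28.5 to 4162 and 3032, and Phf11a at least 51.3-fold, from 4.8 and -8.8 to 1535 and 962. The cytidine deaminase Apobec3 rose at least 4.01-fold and the helicase Ddx24 1.79-fold. The call of Phf11a was lost in 8 of 17 alternative settings and that of Apobec3 in 11. Slfn1 passed upward as well, at levels under the bound.

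**Figure D2:**
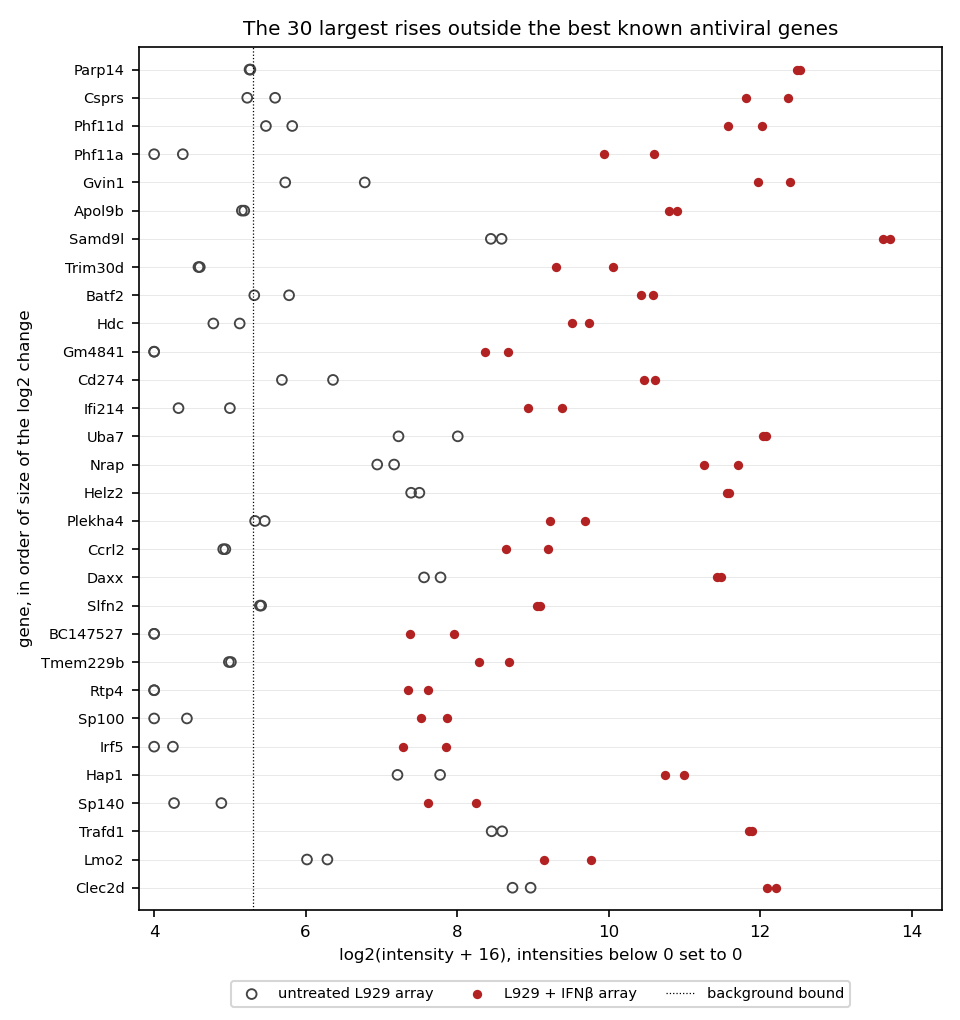
Log2(intensity + 16) on each of the 2 untreated arrays (open circles) and 2 IFNβ arrays (filled circles) for the 30 largest rises outside the best known antiviral genes, with the bound as a dotted line. Groups that do not overlap were a condition for naming the 30 genes. For several, such as Gm4841 and Rtp4, both untreated arrays sit at the floor of the scale.

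Gvin1, a very large interferon-inducible GTPase, rose 78.6-fold, from 93.9 and 37.1 to 5376 and 4006 (adjusted p = 0.0172, limma, lost in 8 of 17 alternative settings). Gm4841, a predicted gene next to the best known Gm4951, had untreated values below 0 and reached 314 and 392 (at least 14.8-fold). Ifi214, of the p200 family of DNA-binding proteins, rose at least 23.4-fold, from 16 and 4 to 655 and 472. BC147527, to which no role is given here, rose at least 7.89-fold to 233 and 150 (call lost in 6 of 17 alternative settings). Members of the Phf11, Trim30, Apol9, p200, Gvin and Sp100-rs families have near-identical copies. Which copies a probe reads was not analysed here, so their values are those of the probe rather than of 1 copy.

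Of 70 transcription factors outside the IRF and STAT families 2 rose (2.86%), and the median was -0.065. The share stands beside 1.09% of all genes and 2.09% of those above the bound. Batf2, a basic leucine zipper factor that partners Jun proteins, rose 46.9-fold, from 24 and 39 to 1359 and 1518 (log2 change 4.95 ± 0.21, adjusted p = 0.00232, limma). Max, the partner of Myc, rose 1.38-fold, a call lost in 14 of 17 alternative settings. Lmo2, a LIM-domain cofactor best known from blood cell development, rose 12.5-fold, from 48.8 and 62.1 to 854 and 553.

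Of 42 genes of the interferon receptor, JAK-STAT and feedback list 8 were higher and 8 lower at an unadjusted p under 0.05 (limma). Such a p was found for 2538 of all 25697 probes, in either direction. By adjusted p 3 rose (7.14%, beside 1.09% of all genes), with a median of -0.030. These were Irf5 (at least 7.31-fold, from values of 3.0 or less to 215 and 140, lost in 10 of 17 settings), Irf2, a repressor within the IRF family (2.32-fold, 2586 and 2386 to 5970 and 5544), and Il15ra, the chain that presents IL-15 (3.10-fold). Of 42 genes of NF-kB and TNF signalling 4 rose, with a median of 0.078. Trafd1, which dampens Toll-like receptor signalling, rose 10.6-fold, from 335 and 371 to 3795 and 3674 (log2 change 3.35 ± 0.06, adjusted p = 0.000427, limma). Nod1, an intracellular sensor of bacterial cell wall fragments, rose 8.11-fold, and the Toll-like receptor adaptor Myd88 2.92-fold from 2018 and 2125. The fourth was Dhx58, which is also in the best known list.

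At the cell surface, the ligand genes of 2 inhibitory immune receptors rose. Cd274 encodes PD-L1, the ligand of PD-1, and went from 66.2 and 35.5 to 1548 and 1392, a 30.3-fold rise (adjusted p = 0.0330, limma, lost in 8 of 17 alternative settings). Clec2d encodes a ligand of the natural killer cell receptor Nkrp1d and rose 10.1-fold, from 485 and 409 to 4718 and 4324 (log2 change 3.30 ± 0.10, adjusted p = 0.00122, limma). Clec2e, of the same C-type lectin family, moved the other way, from 109.9 and 135 to 11.5 and 8.5, a fall of at least 5.15-fold (log2 change -2.41 ± 0.16, adjusted p = 0.0094, limma). A further probe of Clec2e, with values of 7.9 and 27.1 untreated and 31.8 and 28 after IFNβ, had a log2 change of 0.51 and did not pass. Of 54 cell surface immune and adhesion genes 5 rose and 1 fell, with a median of 0.0072. The others were Cd69, an early activation marker of lymphocytes (at least 4.37-fold), and the nuclear envelope genes Tor3a (8.69-fold, 625 and 515 to 4998 and 4868) and Tor1aip1 (3.97-fold), a torsin ATPase and a torsin activator rather than surface proteins.

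Of 55 chemokines and cytokines other than Cxcl10, Il6 and Il15, 4 rose, with a median of 0.0033. Tnfsf10, which encodes the death ligand TRAIL, rose at least 4.88-fold to 127 and 105. Il7, a lymphocyte growth factor, rose 4.06-fold, from 44.9 and 66.3 to 224 and 219. The monocyte-attracting chemokines Ccl8 and Ccl12 reached 67.1 and 71.4 and 28.1 and 30.6. Ccrl2, an atypical receptor that binds chemerin, rose at least 19.7-fold, from 14.1 and 14.7 to 572 and 383. The growth factor betacellulin (Btc) rose at least 7.90-fold, and the galectins Lgals9 and Lgals8, which bind cell surface sugars, 6.44-fold and 3.69-fold.

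Of 26 genes of MHC class I and peptide loading outside the best known list 3 passed upward. Their median log2 change of 0.81 was the highest of the lists, apart from the best known genes. The 3 were the non-classical class I genes H2-T24 (at least 3.35-fold) and H2-M3 (3.12-fold, 266 and 276 to 879 and 813) and the proteasome activator Psme1 (2.66-fold). Class I genes share long stretches of sequence, so these values may include related genes. Of 12 class II genes 4 lay above the bound, and 0 passed in either direction by limma, and 0 had an unadjusted p under 0.05, with a median of 0.0086. Of 34 complement and serpin genes 2 rose, with a median of 0.084. They were complement C2 (4.94-fold, 751 and 812 to 3988 and 3731) and Serpinb6b (2.13-fold).

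Of 50 cell death genes 5 rose, with a median of 0.021, and 3 of them act in pyroptosis, the inflammatory form of cell death. Casp4, the caspase that senses bacterial lipopolysaccharide in the cytosol, rose 4.88-fold, from 545 and 593 to 2584 and 2976 (log2 change 2.26 ± 0.09, adjusted p = 0.00212, limma). Casp1, the inflammasome caspase, rose 2.09-fold from 2610 and 3141. Gsdmd, the pore-forming protein that both caspases cut, rose 2.88-fold, from 84.1 and 77.9 to 244 and 222. The remaining members were Tnfsf10 and Daxx. The calls of Casp1 and Gsdmd were lost in 9 and 8 of 17 alternative settings.

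Hdc, an enzyme which makes histamine from histidine, went from 19.0 and 11.5 to 841 and 715, at least 32.7-fold (log2 change 4.67 ± 0.16, adjusted p = 0.00139, limma). Of 37 genes of nucleotide, NAD and pterin metabolism 2 rose (5.41%, beside 1.09% of all genes, with a median of -0.065). Pnp, which cleaves purine nucleosides, rose 5.39-fold, from 656 and 639 to 3921 and 3107, and the pyrimidine nucleotidase Nt5c3 3.90-fold. Of 44 genes of amino acid, itaconate and redox metabolism 0 passed by limma in either direction. At an unadjusted p under 0.05, 2 were higher and 2 lower, beside 2538 of all 25697 probes in either direction. Of 56 lipid genes 3 rose (5.36%, with a median of -0.015). The lipid-binding Apol9b rose at least 77.0-fold, from 20.5 and 19.7 to 1893 and 1759.5 (log2 change 5.67 ± 0.07, adjusted p = 0.000165, limma), which is the smallest adjusted p among the 30 named rises. The other members were the cytidine deaminases Apobec1, which edits apolipoprotein B messenger RNA and rose 6.23-fold, and Apobec3.

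Of 62 lysosome, endosome and autophagy genes 1 rose (1.61%, beside 1.09% of all genes and 2.09% of those above the bound). It was Tcirg1, a subunit of the vacuolar proton pump (7.15-fold, 446 and 499.7 to 3711 and 3072, lost in 7 of 17 alternative settings). Of 56 transporters and channels the mitochondrial iron importer Slc25a28 rose 2.11-fold (1 gene, 1.79%), and Slc44a1 passed downward under the bound. Rab3d, a small GTPase of secretory vesicles, rose 7.85-fold, from 497 and 622 to 4954 and 3841. The mitochondrial phosphatase Ppm1k rose 8.89-fold, from 85.3 and 77.1 to 727 and 715.

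Nrap, which encodes an actin-anchoring protein of striated muscle, rose 24.4-fold, from 107 and 128 to 3339 and 2441 (log2 change 4.43 ± 0.20, adjusted p = 0.00271, limma). Hap1, the huntingtin-associated protein of neurons, rose 11.3-fold, from 132 and 203 to 1698 and 2021. Plekha4, which binds membrane phosphoinositides, rose 26.4-fold, from 24.3 and 28 to 810.0 and 585. Rtp4, which helps receptors to the cell surface, rose at least 6.87-fold, and Tmem229b, a membrane protein, at least 14.5-fold. A further Tmem229b probe read -0.8 and 12.7 untreated and 37.7 and 23 after IFNβ. Its log2 change was 1.09, against 3.49 on the brightest probe, and it did not pass. Taar3, named as a trace amine receptor, rose 8.08-fold, from 70.4 and 63.5 to 683 and 427. Its 4 nearest protein-coding neighbours on the array, all of the same receptor family, lay under the bound and did not pass.

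**Figure D3:**
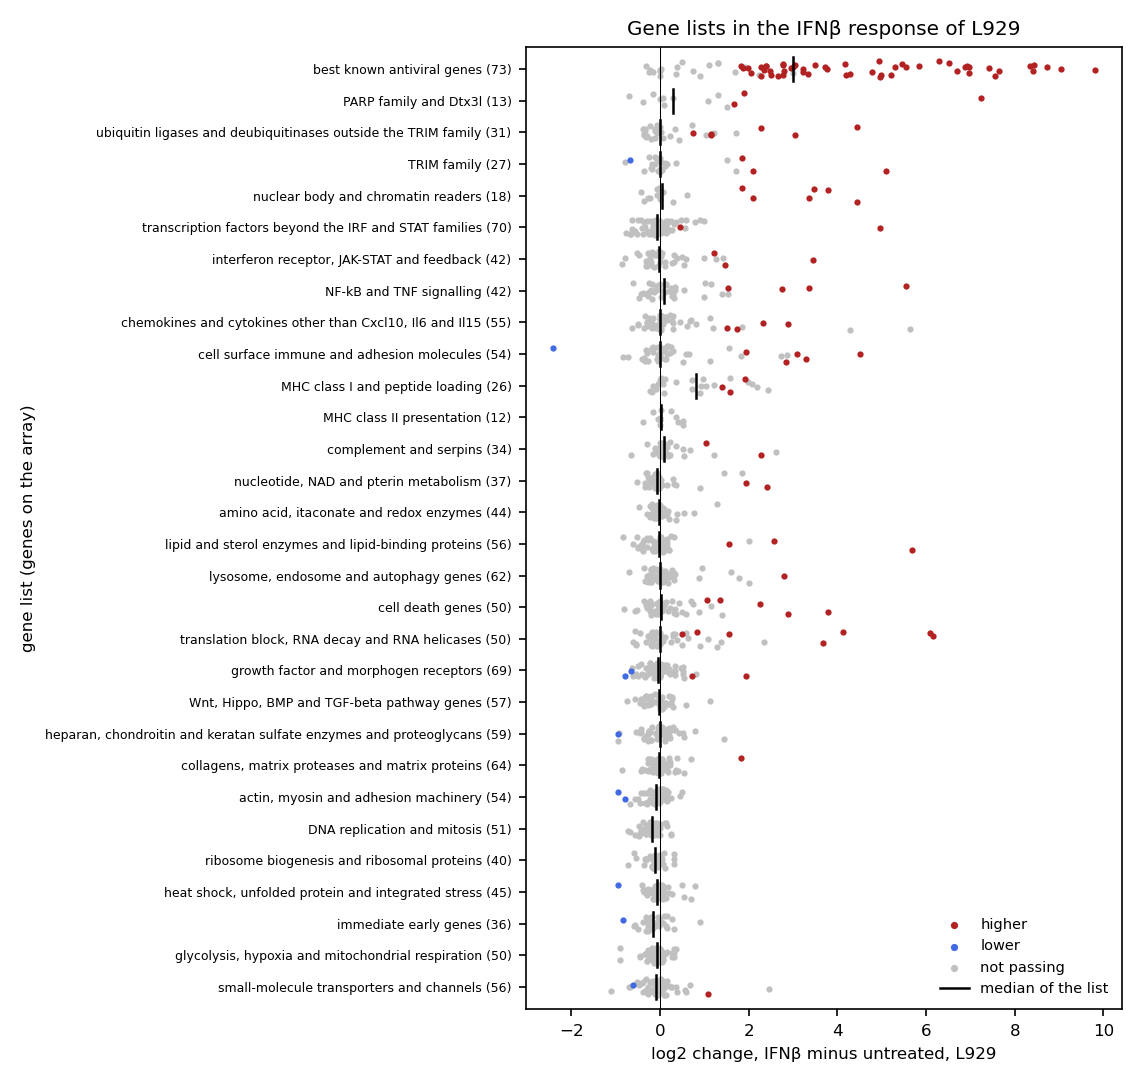
Log2 change (IFNβ minus untreated, L929) of every gene on the array in each of the lists, with the number of genes in brackets and the list's median as a bar. Red and blue points passed the test upward and downward. Outside the best known genes, most lists have medians near 0 with a few strongly risen members, and the MHC class I list has a median of 0.81.

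The fallen genes were mostly well measured before IFNβ and fell by less than 2-fold. After Clec2e, the largest falls were those of Get1, which inserts tail-anchored proteins into the endoplasmic reticulum, and Abi2, a subunit of the WAVE complex that drives actin branching. Get1 went from 1946 and 2012 to 1012.9 and 1012.5, a 1.95-fold fall (log2 change -0.96 ± 0.07, adjusted p = 0.0105, limma). Abi2 went from 1308 and 1328 to 659.6 and 689, also 1.95-fold (log2 change -0.95 ± 0.04, adjusted p = 0.00306, limma). Chst1, a sulfotransferase of keratan sulfate, had the highest starting level of the 20 largest falls, 3087 and 3139, and read 1481 and 1752 after IFNβ.

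Lrp6, the Wnt co-receptor, fell 1.94-fold, from 123 and 109.1 to 60.4 and 59.2, and the lysophosphatidic acid receptor Lpar2 fell at least 1.76-fold, from 44.5 and 39.0 to 19.9 and 20.8. Trib2, a pseudokinase, fell 1.80-fold, from 1049 and 1149 to 593 and 627. Cop1, a ubiquitin ligase for which Trib proteins act as adaptors, fell 1.74-fold, from 761 and 661 to 409 and 405. Spast, which severs microtubules, fell 1.77-fold and Eml1, which binds them, 1.49-fold. Sgms1, which makes sphingomyelin, fell 1.75-fold, from 178 and 176 to 100 and 103.

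The nuclear genes among the falls included Foxc2, a forkhead factor (1.80-fold, 277 and 243 to 136 and 153, adjusted p = 0.0499, limma), and Ahdc1, an AT-hook protein (1.93-fold). The call of Foxc2 was lost in 14 of 17 alternative settings, and its log2 change in L929IRF8 was -0.015. Tdg, which removes thymine from G:T mismatches, fell 1.59-fold, from 689 and 748 to 468 and 435. Bcl7a, a subunit of the BAF chromatin remodelling complex, fell 1.53-fold. The remaining named falls were Tmed8, Ssx2ip, Lrrn3 and Zswim3, with folds of 1.61 to 1.78. That the 2 arrays of 1 group did not overlap those of the other was a condition for naming these 20 genes. In the alternative settings between 0 (the 4 L929 arrays alone) and 20 of the 20 falls kept their call, and between 6 and 11 without 1 array.

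**Figure D4:**
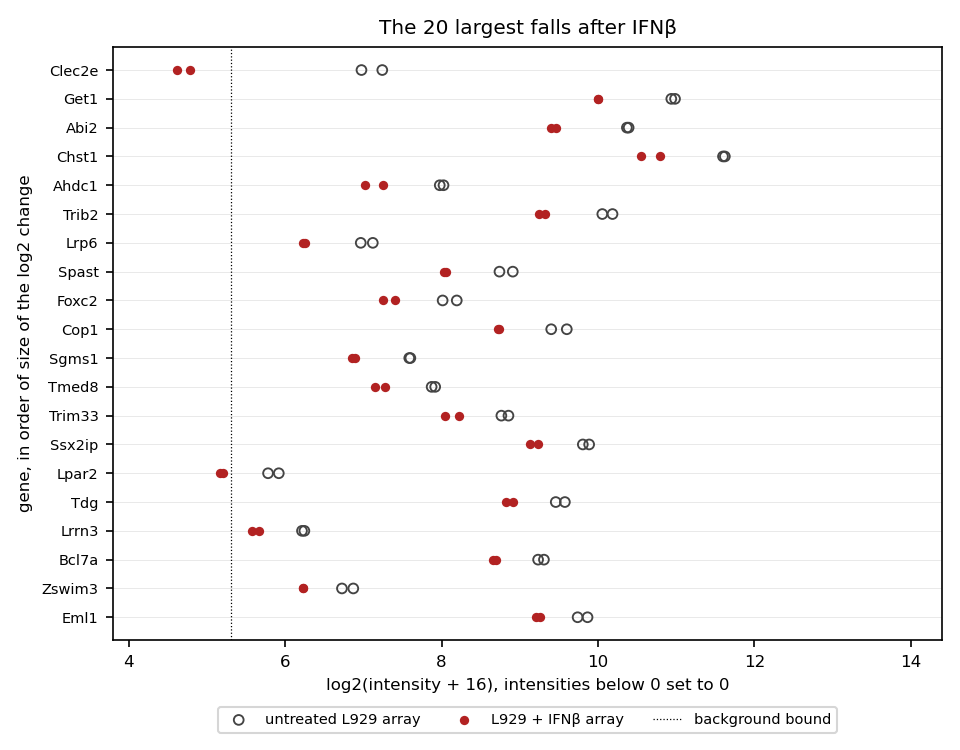
Log2(intensity + 16) on each untreated (open) and IFNβ (filled) array for the 20 largest falls. Clec2e and Lpar2 fell under the bound (dotted line). Apart from Clec2e, the shifts are below 1 on the log2 scale.

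Against a median log2 change of -0.0075 over all genes and -0.078 over genes above the bound, the 51 replication and mitosis genes had a median of -0.18, the 36 immediate early genes -0.16 and the 40 ribosome genes -0.11. Of the replication, ribosome, glycolysis and respiration (50 genes) and Wnt, Hippo, BMP and TGF-beta (57 genes) lists 0 members passed by limma in either direction. At an unadjusted p under 0.05 these lists had 7, 6, 6 and 5 lower members and 0, 1, 2 and 1 higher ones. Over all 25697 probes 2538 had such a p (limma) in either direction. The share by direction is not given here, so no tilt of these lists is read from the counts. Of 64 collagens, matrix proteases and matrix proteins 1 rose (1.56%, beside 1.09% of all genes and 2.09% of those above the bound). It was the gelatinase Mmp2 (at least 4.67-fold, 18.2 and 21.7 to 136 and 89.9). Of 59 proteoglycan genes 1 fell, Chst1 (1.69%). Of 69 growth factor and morphogen receptors 2 rose (Lrp4, 4.72-fold, and Notch3, under the bound) and 2 fell (Lrp6 and Lpar2). Beside 0.319% lower of all genes and 0.466% of those above the bound, these receptors were lower in 2.90% of cases. The 54 actin and adhesion genes held 2 falls (Abi2 and Spast, 3.70%), the 45 stress genes 1 (Get1) and the immediate early genes 1 (Trib2).

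A part of the risen genes lay side by side on the chromosome. The order is that of RefSeq's protein-coding genes on GRCm38.p6. Of the 162 risen genes that could be placed 37 (22.8%) had another risen gene directly beside them. Of the 7901 genes above the bound, the risen included, 140 did (1.77%). For the genes outside the best known list this was 16 of 113 (14.2%), and for the fallen genes 2 of 37 (5.41%). Some neighbours were members of 1 family, such as Sp110, Sp140 and Sp100 in a run, Trim30a and Trim30d, Ccl12 and Ccl8, and Casp1 and Casp4. Which copies of a family a probe reads was not analysed, so 1 transcript read by 2 probes could count as 2 neighbours. Clec2d and Cd69, both of the C-type lectin family, were adjacent too, and Clec2e, which fell, lay directly on the other side of Clec2d. Other pairs were of unrelated genes, such as Dusp28 beside Rnpepl1, and Ctrl, a digestive protease of the pancreas, beside the proteasome subunit Psmb10. Ctrl rose 3.82-fold, from 42.5 and 32.0 to 134 and 148.

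The 4 L929IRF8 arrays share no array with the parental comparison, though they share its model and its estimate of spread. In that line 153 genes were higher (0.922%) and 42 lower (0.253%) after IFNβ. All 166 risen and all 37 fallen genes of parental L929 above the bound had a change of the same sign there, and 122 and 22 of them passed. Of the 113 risen genes outside the best known list 72 passed, with a median log2 change of 2.09 in L929 and 1.68 in L929IRF8. Of the 30 largest rises 26 passed in L929IRF8. The exceptions were Cd274 (log2 change 4.51 in L929 and 3.06 in L929IRF8), Uba7 (4.44 and 3.34), Rtp4 (3.48 and 2.06) and Irf5 (3.44 and 3.10).

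The difference between the lines was tested for every probe. It passed for 0 of the 113 other risen genes (smallest adjusted p = 0.334, Bnip5, limma) and 0 of the 37 fallen genes (smallest adjusted p = 0.305, Lrrn3, limma). Among the best known genes it passed for Oas1b. At an unadjusted p under 0.05 the change of 32 of the 113 genes was smaller in L929IRF8 and that of 1 larger, and for the falls 12 were smaller and 2 larger in size. The genes were chosen on their change in L929, so this direction is partly set by the choice. A p that misses the threshold does not show that the lines respond alike.

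**Figure D5:**
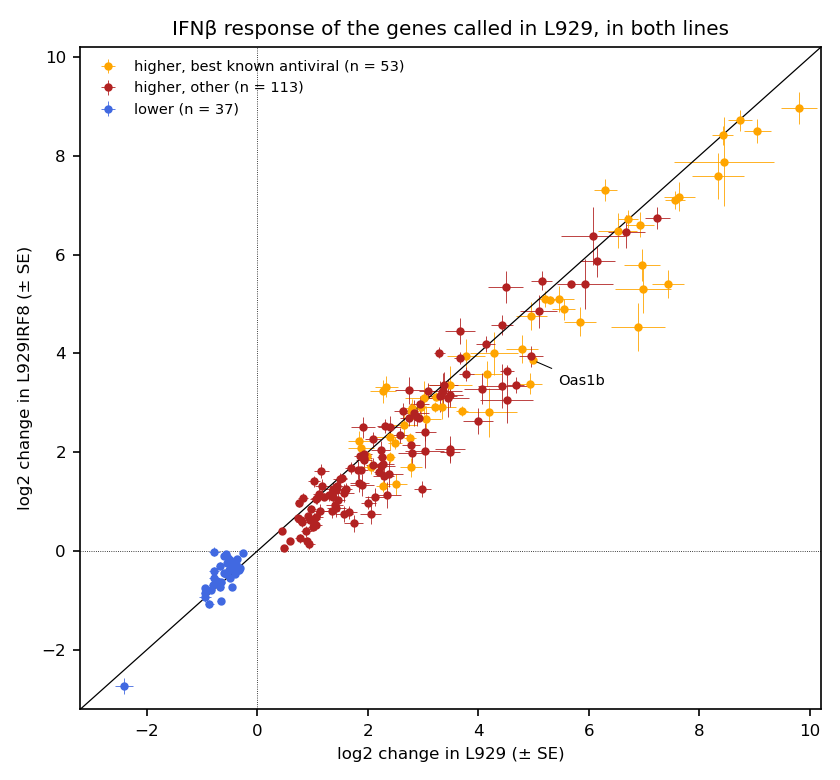
Log2 change after IFNβ in L929 (horizontal) against L929IRF8 (vertical), each with its standard error, for the 203 genes above the bound called in L929, with the line of equal change. All points lie in the same quadrant as in L929, and Oas1b is the gene whose difference between the lines passed the test.

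A gene's other probes were also read, where their mean lay above the bound in at least 1 L929 group. A probe that was dim in 1 group entered only through the group where it was high, which set its direction. The further probe of Phf11a, at -0.8 and -3.7 untreated and 1322 and 958 after IFNβ, is such a case. How many probes entered in this way was not counted. For 44 of the 166 risen genes 66 further probes lay above the bound, of which 65 had the same direction and 45 passed. Some that did not pass had smaller log2 changes than the brightest probe. Such probes read 1.44 for Ifi214 (against 4.50), 2.09 and 1.96 for Hap1 (against 3.37) and 0.12 for Pml (against 1.85). For 12 of the 37 fallen genes there were 15 further probes, of which 14 had the same direction and 1 passed.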

How the data were processed

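RNA was amplified and hybridised to Illumina mouse bead arrays, per the labels' protocols. What the authors deposited are linear intensities for 25697 probes. The processing tool is not given in the sources used here. Judged by the values, background had been subtracted (28.1% to 28.3% of probes lie below 0 on each array) and the arrays quantile normalized (sorted arrays differ by at most 1.7 units), so they were not normalized again. Such values cannot show a shift common to most genes. Array medians were 13.8 to 13.9, the highest value 31688.8, and log2 values of replicate arrays correlated at 0.991 (untreated) and 0.990 (IFNβ). The number of arrays limits the precision.

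Negative intensities were replaced by 0, and log2(intensity + 16) was used, which understates changes of dim genes. In R 4.3.3, limma 3.58.1 estimated 1 mean per group from all 8 arrays (lmFit, then eBayes, 4 groups, 4 residual degrees of freedom). P-values were adjusted by Benjamini-Hochberg over all probes at 0.05. With 2 arrays against 2, the smallest two-sided p of an exact permutation test is 0.333. The script was tested on simulated data.

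Of the probes 23978 have 1 symbol and 1719 none. The 4777 genes with several probes are represented by their brightest probe in log2 mean. Named are the 30 largest rises outside the best known list and the 20 largest falls that passed, did not overlap and lay above 23.7, the 15 largest rises from a measured level (all among the 30), and up to 6 passing members of each list. Rab3d, Ppm1k, Btc, Lgals8, Lgals9, Taar3, Ctrl and the other neighbouring pairs were chosen after their values were seen. The members and the 30 gene lists and 5 marker lists were chosen with earlier results of these data known. The alternatives tried were another pseudocount, no floor, raising values to the bound, a filter on dim probes, only the L929 arrays, the replicate number as a block, an intensity trend, median centring and leaving out each array.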

Additional observations from a re-analysis of the deposited data

Results flagged for a closer look

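The response of Oas1b, an oligoadenylate synthetase of the best known antiviral list, differed between the lines on its brightest probe by the test of the difference itself. It read -10.5 and -3.2 in untreated L929 and 483 and 499.9 after IFNβ, a log2 change of 4.99, against a mean of 216 ± 2.12 (SD, n = 2) after IFNβ and a log2 change of 3.86 in L929IRF8. The difference, L929IRF8 minus L929, was -1.13 ± 0.037 (SE, adjusted p = 0.0363, limma). All untreated values of both lines lie at the floor of the scale, where replicates do not differ, and the SE is that of a gene with no spread in 2 of the 4 groups. A further Oas1b probe read -11.5 and 3.7 in untreated L929 and 273 and 339 after IFNβ, a log2 change of 4.17 ± 0.35 (SE). The difference between the lines on that probe is not given here.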

How the results depend on the processing

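The main model called 256 probes higher, 72 lower and 26 of the 30 largest rises in L929IRF8. Without a floor the lower count was 26. With values raised to the bound 157 were higher and 25 lower. On probes above the bound alone 42 were lower, and by gene 232 were higher, 160 of them among the 181 of the main model, and 34 lower, 14 of them among its 53. With the 4 L929 arrays alone 9 were higher and 0 lower. Leaving out 1 array gave 141 to 396 higher (141 without L929 untreated replicate 1, 396 without L929 IFNβ replicate 1), 40 to 298 lower (213 and 298 without L929 untreated replicates 1 and 2, where 141 and 171 were higher, so that the balance turned, 44 without either untreated L929IRF8 array, 40 without either L929IRF8 IFNβ array) and 17 to 23 of the 30 rises in L929IRF8 (17 without L929 untreated replicate 1 or 2 or without L929IRF8 untreated replicate 1). The cause was not tested, except that fewer arrays leave fewer degrees of freedom.

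With the replicate number as a block 254 probes were higher, 88 lower, and 25 of the rises passed in L929IRF8. The block changed the call of 23 of 91 named genes, and 28 of the 30 rises and 12 of the 20 falls kept theirs. Deviations of same-numbered arrays correlated at 0.441 to 0.523 over the 6 pairs of groups, but the labels call the replicates independent and there are 2 numbers. The block on probes above the bound, chosen after seeing the data, gave 474 higher and 204 lower.

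No named gene changed sign in any of the 17 settings. Of the 30 rises 24 to 30 kept their call in settings with all 8 arrays, 19 to 27 without 1 array and 3 with the L929 arrays alone. Of the 20 falls 8 to 20, 6 to 11 and 0 did. Signal near background limits the dim genes, whose changes shrink or grow with the floor.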

Other observations

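Beside the genes that passed, 23 genes with a log2 change of at least 2, all of them rises, had groups that did not overlap but did not pass. They were chosen after their values were seen, and Ifi44l and Psmb8 among them are best known genes. Those under the bound in untreated cells entered only through the IFNβ group, which set their direction. With 2 arrays against 2, groups that do not overlap have a two-sided p of 0.333 by an exact permutation test. The share of all genes without overlap is not given here. The chemokine Cxcl9, which attracts T cells, read -6.5 and -4.1 untreated and 1531 and 395 after IFNβ (log2 change 5.64 ± 0.92). The cytokine Il18 read 13.9 and 6.9 and then 692 and 349 (4.28 ± 0.55). The costimulatory receptor Cd40 read 529 and 239 and then 4743 and 1544 (2.87 ± 0.92).

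Several of the 23 belong to class I antigen presentation, where 3 of the 26 listed genes passed. The peptide-loading chaperone Tapbp read 383 and 306 and then 1834 and 1219 (log2 change 2.08 ± 0.35). Its relative Tapbpl read 82.4 and 84 and then 699 and 388 (2.44 ± 0.36). The immunoproteasome subunit Psmb8, a best known gene and not among the 26, read 108 and 57.5 and then 605 and 308 (2.23 ± 0.44). At an unadjusted p under 0.05, 12 of the 26 listed class I genes were higher and 0 lower by limma. Over all 25697 probes 2538 had such a p in either direction, where 1285 would be expected without any change. The antiviral helicase Mov10 read 16.1 and 15.5 and then 177 and 120.1 (2.35 ± 0.34).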
